A study of Mus musculus with 4 samples.

Results

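In mouse wounds at day 4, cells carrying several transcripts of the chemokine genes Ccl3 and Ccl4 but none of the receptor gene Cxcr2 were described. A member of the population had at least 10 transcripts, at least 3 of them from Ccl3 and Ccl4 together, and 0 from Cxcr2, counting transcripts whose quality score reached 20. On the slide with wounds 3431 cells met this rule, of 123433 with at least 10 transcripts in the 3 wound sections and of 426792 with at least 10 transcripts on the 4 slides of the series. The members were chosen by their Ccl3, Ccl4 and Cxcr2 counts, so these counts describe them and were given no test.

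The assay was Xenium, which counts single RNA molecules where they lie in a thin slice of tissue. A fixed panel of probes, here for 328 genes, is read, and each molecule is assigned to a cell outlined around its nucleus. All wound sections came from male mice with a Tet-On transgene, in which Krt5-rtTA drives TRE-Pitx1 in Krt5-expressing keratinocytes. Both conditions carried the transgenes. PITX1+ mice ate chow with doxycycline, which turns Pitx1 on, and Control mice ate normal chow. Full-thickness excisional wounds in dorsal skin were collected 4 days later and cut at 5 µm. The labels place both conditions on the same slide and give none to a section. The 3 sections were therefore separated by position, joining cells within 200 µm, and the first was taken as Control and the other 2 as PITX1+, which follows the section outlines in the study's wound image. The 2 PITX1+ sections may share an animal, since the labels do not say. Keratinocyte-rich cells, those with at least 30% of their transcripts from 17 keratinocyte genes, held 26 Pitx1 transcripts in the Control section, 575 in PITX1+ section 1 and 292 in PITX1+ section 2, which is 0.0693, 0.618 and 0.324 per 1000 transcripts, higher in both sections taken as PITX1+. Members, which are not the cells the transgene targets, held 9, 5 and 11 Pitx1 transcripts, or 0.347, 0.0909 and 0.126 per 1000, highest in the Control section. With 1 Control section, no test between conditions was possible, and intervals are exact at 95% and cover counting error only. Within sections, members were set against other cells by a two-sided exact sign-flip permutation test over the 3 sections. Its smallest possible p is 0.25, which was reached wherever all 3 sections moved the same way, so values per section are given in place of p. Values of the 3 sections follow the order Control, PITX1+ section 1, PITX1+ section 2.

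Ccl3 and Ccl4 encode the chemokines MIP-1α and MIP-1β, which draw monocytes, macrophages, T cells and other leukocytes through receptors that include Ccr1. Their genes are neighbours on chromosome 11. Both macrophages and neutrophils can make them when activated. Cxcr2 is the main receptor by which neutrophils follow CXC chemokines into tissue. In a fresh skin wound neutrophils crowd beneath and within the scab (eschar), and monocytes and macrophages fill the granulation tissue below.

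The Control section held 606 members, PITX1+ section 1 held 1113 and PITX1+ section 2 held 1712. They were 3.32% (3.06% to 3.59%), 2.91% (2.75% to 3.09%) and 2.56% (2.44% to 2.68%) of cells with at least 10 transcripts. On this scale the share was highest in the Control section, and the mean of the PITX1+ sections was 2.74% ± 0.252 (SD, n = 2). The order depended on the cells counted. More of the Control cells had fewer than 10 transcripts, and of all 34635, 56004 and 83576 cells members were 1.75%, 1.99% and 2.05%, lowest in the Control section. The order of the Control share and the PITX1+ mean also turned with a threshold of 5 chemokine transcripts. The Control share was then 0.925% (0.791% to 1.07%) and the PITX1+ mean 0.996% ± 0.243 (SD, n = 2), which lay within the Control interval. Fewer such cells and less Ccl3 or Ccl4 RNA per cell cannot be told apart in such a share.

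Most members lay close to the threshold. Cells without Cxcr2 that had exactly 3 transcripts of Ccl3 and Ccl4 numbered 287, 417 and 789, and cells just outside, with 2, numbered 613, 855 and 1647. The median member had 4 in every section, and the highest had 19, 22 and 38. Ccl3 supplied most of the signal, with 2233, 4857 and 6545 transcripts in members, while Ccl4 supplied 330, 657 and 1171. These totals depend on the probes of each gene and do not rank the genes. Both genes were found in 39.9%, 40.7% and 45.1% of members, Ccl3 alone in 59.4%, 58.9% and 54.4%, and Ccl4 alone in 4, 4 and 9 cells. Members held 29.7%, 40.8% and 34.7% of all Ccl3 transcripts within cells of their section. A further 9.90%, 7.75% and 10.8% were in cells that passed the chemokine threshold and also had Cxcr2, of which there were 161, 226 and 532.

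The share of chemokine-rich cells with a Cxcr2 transcript was larger among cells with more transcripts. Over the 3 sections, Cxcr2 was found in 5.16% (3.78% to 6.87%) of Ccl3/Ccl4-rich cells with 10 to 19 transcripts, in 11.9% (10.2% to 13.8%) of those with 20 to 39, in 25.5% (23.1% to 28.1%) of those with 40 to 79, and in 42.8% (39.6% to 46.0%) of those with 80 or more. In the deepest class the sections differed, at 47.9%, 27.7% and 47.8%, and in PITX1+ section 1 this was hardly above its 25.5% at 40 to 79 transcripts. The median member had 28, 33 and 35 transcripts, against 69, 61 and 80 in Ccl3/Ccl4-rich cells with Cxcr2. At these depths the absence of Cxcr2 transcripts does not show that a cell lacked Cxcr2.

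**Figure D1:**
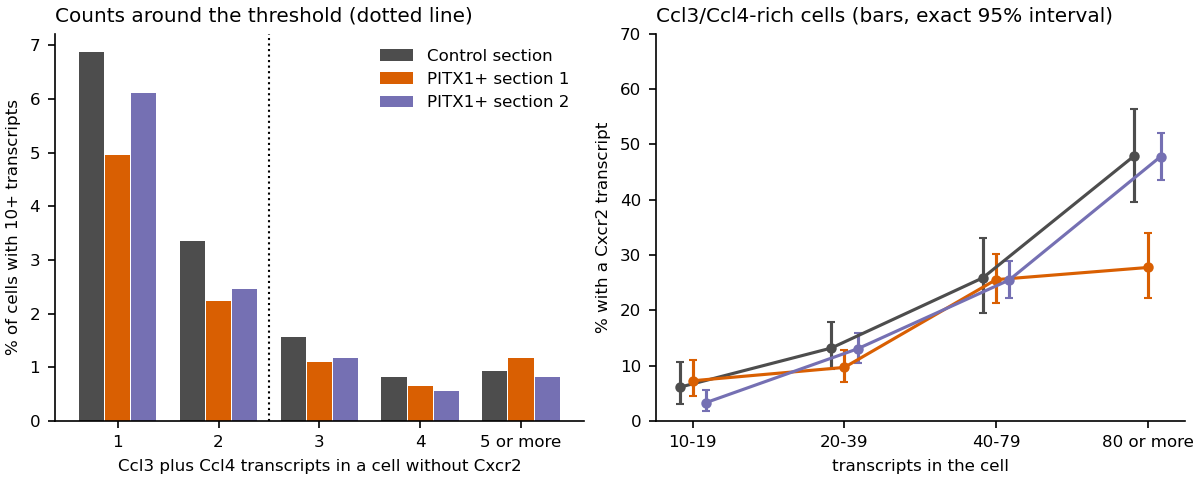
Left, percent of cells with at least 10 transcripts (y axis) by the number of Ccl3 plus Ccl4 transcripts in cells without Cxcr2 (x axis), for the Control and both PITX1+ sections. Right, percent of Ccl3/Ccl4-rich cells that had a Cxcr2 transcript (y axis, bars are exact 95% intervals) by transcripts per cell (x axis), which ran from 5.16% in the smallest class to 42.8% in the largest over the 3 sections together.

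Few cells met the rule outside the wounds. On the male unwounded slide 31 of 78962 cells with at least 10 transcripts did (0.0393%, 0.0267% to 0.0557%), and 28 of them were in 1 of its 3 sections. On the female unwounded slide there were 15 of 161614 (0.00928%), and in buccal mucosa 1 of 62782 (0.00159%), with no member in 2 of 4 and 6 of 7 sections. Sections with 0 members allowed shares of up to 0.0107% to 0.0502%, taking 3 cells as the limit. The slides were read separately, so slide, tissue and wounding cannot be told apart. The paper's unwounded Xenium skin came from both Control and PITX1+ mice, and the labels give no condition to a section of these slides. The condition of the male section with 28 cells is therefore not known. The 28 cells of the male section drew 6.04% of their transcripts from the neutrophil genes below, 1.16% from the macrophage genes below and 15.3% from keratinocyte genes. The order was the opposite in a female section with 11 cells, at 1.01% neutrophil and 3.04% macrophage genes, on 395 transcripts.

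Neutrophil genes outweighed macrophage genes in the members. Levels are transcripts of a gene as a share of the 325 panel genes that the rule did not use. Over 6 neutrophil genes, S100a8, Trem1, Mmp9, Hdc, Tnip3 and Chil3, members held 9.84%, 11.1% and 9.67% of these transcripts, and over 8 macrophage genes, C1qa, Csf1r, Cd68, Mrc1, Ms4a7, C3ar1, Pf4 and Mgl2, they held 2.38%, 1.92% and 2.77%. Neutrophil transcripts were thus 4.13, 5.80 and 3.49 times as many as macrophage transcripts, in every section. In all other cells with at least 10 transcripts the neutrophil genes held 1.43%, 1.93% and 3.16% and the macrophage genes 2.46%, 2.34% and 2.46%. In the wound gap, defined below, neutrophil genes outweighed macrophage genes in all other cells too, at 3.36, 1.85 and 2.29 times as many transcripts. Members there stood at 5.37, 7.77 and 4.37 times. These ratios depend on the probes of each list.

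Reference cells of 2 kinds were taken from the same sections, both with fewer than 3 Ccl3 and Ccl4 transcripts. Macrophage reference cells had at least 3 macrophage-gene transcripts and no Cxcr2 (3698, 7170 and 12114 cells), and neutrophil reference cells had at least 1 Cxcr2 transcript (1079, 3324 and 10207 cells). In the macrophage reference, where the macrophage genes were used to choose the cells, those genes held 8.14%, 8.78% and 7.25%, and the neutrophil genes, which were not used, 0.679%, 1.23% and 1.86%. The neutrophil share of members exceeded that of the macrophage reference by 9.16, 9.87 and 7.81 percentage points.

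The same order was seen cell by cell. After each cell was thinned to 10 transcripts of the 325 genes, 55.9%, 58.3% and 52.7% of members showed neutrophil and no macrophage genes, and 5.93%, 6.70% and 8.89% showed macrophage and no neutrophil genes. Both kinds were seen in 8.70%, 11.4% and 11.0%. Thinning left out 44, 97 and 101 members with fewer than 10 such transcripts. In the macrophage reference 2.79%, 4.70% and 7.79% showed neutrophil genes only. Within the wound gap, a stretch defined with the positions, neutrophil genes only were shown by 59.5%, 67.9% and 56.3% of members, by 63.8%, 53.1% and 56.1% of the neutrophil reference and by 54.7%, 40.7% and 46.3% of all other cells. Members there were above all other cells in every section and below the neutrophil reference in the Control section. Unthinned, both kinds stood in 32.8%, 39.7% and 44.2% of members, and in 81.6%, 68.0% and 79.4% of the 76, 172 and 296 members with 80 or more transcripts, so the deeper the cell the more often it carried both. In these deepest members the neutrophil genes held 7.34%, 7.37% and 7.24% of transcripts and the macrophage genes 3.34%, 1.55% and 3.27%. Outlines can merge neighbouring cells or take in their transcripts, no doublets were removed, and their part in cells with both kinds was not tested.

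Within the neutrophil list, S100a8, a calcium-binding protein that neutrophils hold in bulk, stood at 46.6, 63.8 and 57.3 transcripts per 1000, and was found in 64.2%, 79.2% and 74.5% of members. In all other cells it stood at 8.39, 11.0 and 18.2 per 1000. It supplied more member transcripts than any other gene of the list in every section. The paper also lists S100a8, Il1b, Il1rn and Slpi among genes of activated keratinocytes in wounds. The part of these transcripts taken in from keratinocytes was not tested. Hdc, the enzyme that makes histamine, stood at 25.9, 16.1 and 16.9 per 1000 in members and at 0.723, 1.12 and 1.74 in the macrophage reference. Trem1, a receptor that amplifies inflammatory signals in neutrophils and monocytes, stood at 13.6, 8.64 and 7.41 per 1000, and Mmp9, a gelatinase of neutrophil granules, at 8.68, 20.7 and 12.9. For all 4 genes every section was above its macrophage reference by at least 2-fold. Chil3 stood at 2.74, 1.31 and 1.99 per 1000 in members and at 1.69, 1.52 and 1.45 in the macrophage reference, lower in PITX1+ section 1 only. Tnip3 was rare, with 64 transcripts in all members.

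The macrophage list was split. Cd68, a lysosomal glycoprotein used to mark macrophages, stood at 11.0, 12.1 and 13.7 per 1000 in members, close to the macrophage reference at 11.5, 12.1 and 12.5, and was found in 26.1%, 33.3% and 34.7% of members. Within the wound gap it stood at 10.1, 13.4 and 14.7 in members and 18.8, 11.9 and 22.6 in the macrophage reference, lower in 2 of 3 sections. The other 7 genes were lower than in the macrophage reference in all sections, an order that the choice of that reference by these same 8 genes largely set, so the values that follow are a description. C1qa, a complement subunit of tissue macrophages, stood at 2.09, 0.586 and 2.28 per 1000 in members against 21.6, 24.3 and 19.2. Csf1r, the receptor for the macrophage growth factor CSF1, stood at 3.63, 4.81 and 7.26 against 15.6, 18.5 and 17.3, and Mrc1, the mannose receptor, at 0.940, 0.263 and 0.501 against 12.9, 15.5 and 7.28. C3ar1, Pf4 and Ms4a7 did not pass 3.29 per 1000 in any section, nor Mgl2 0.385.

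**Figure D2:**
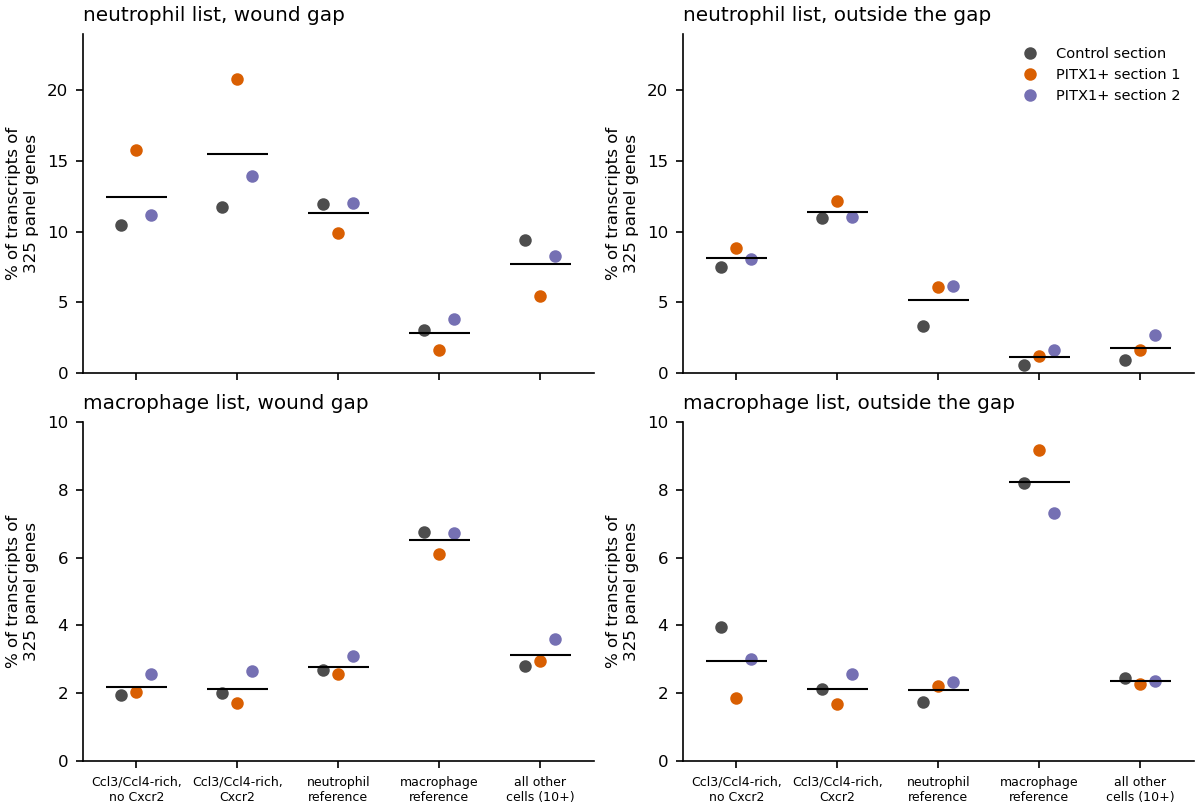
Percent of the transcripts of 325 panel genes (y axis) that came from the 6 neutrophil genes (top) and the 8 macrophage genes (bottom), in 5 kinds of cell (x axis), inside the wound gap (left) and outside it (right). Points are sections and lines their means; in the gap members sat at 10.5%, 15.8% and 11.2% neutrophil genes, above the macrophage reference at 3.05%, 1.65% and 3.80%.

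Genes of acute inflammation led the panel in members. Among 149 genes with at least 100 transcripts in members, 27 were at least 2-fold higher than in all other cells in all 3 sections (18.1%) and 38 at least 2-fold lower (25.5%); the other 176 genes were too rare in members to be counted. Of the 8 inflammatory genes 7 were measured and 6 were among the higher ones, with list medians of 3.35, 2.14 and 1.95 on the log2 scale beside -0.82, -0.30 and -0.18 over all 149 genes. The difference was smaller within the wound gap, where the 8 genes held 18.95%, 22.4% and 18.7% of member transcripts, 13.1%, 5.01% and 10.33% in all other cells and 14.5%, 6.84% and 13.1% in the neutrophil reference. Over the whole section they held 18.2%, 18.6% and 16.7% in members and 2.14%, 3.35% and 4.90% in all other cells. Of the neutrophil genes 3 of 5 measured were higher, of the immediate early genes 4 of 6, of the wound macrophage list 4 of 9, and of the macrophage genes 1 of 5. At least 2-fold lower were C1qa, 1 of the 5 macrophage genes, and 1 of the 6 immediate early genes. Of the 6 measured CC and CXC chemokine genes 2 were lower, Ccl8 and Cxcl12, and 1 was higher, Cxcl3. No measured gene of the neutrophil or wound macrophage list was lower in this way. Within the gap the wound macrophage list held 18.6%, 11.6% and 16.3% of transcripts in members and 18.1%, 12.6% and 15.9% in all other cells, with little between them.

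Il1rn, which encodes the antagonist of the IL-1 receptor, was found in a larger share of PITX1+ members than any other of the 325 genes, 81.9% and 80.6%, and in 74.3% of Control members. It stood at 54.4, 82.3 and 65.8 per 1000 in members and at 5.36, 8.78 and 13.8 in all other cells. Il1b, the cytokine it opposes, stood at 63.3, 39.7 and 45.7 per 1000 in members and at 5.88, 5.95 and 11.8 in all other cells. Tnf had the largest ratio of the 149 genes, ranked by the smallest of the 3 sections, at 16.1, 12.2 and 9.31 per 1000 against 0.861, 0.691 and 0.771, with log2 ratios between 3.59 and 4.22. Slpi, an inhibitor of neutrophil elastase, stood at 39.9, 42.3 and 33.8 per 1000. Csf3, the growth factor G-CSF for neutrophils, was rare at 2.18, 0.889 and 1.63 per 1000 but rarer still elsewhere, at 0.0813, 0.211 and 0.385.

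Among chemokine genes Cxcl3, a ligand of Cxcr2, stood at 37.1, 21.1 and 19.7 per 1000 in members against 2.33, 1.28 and 2.49 in all other cells. Cxcl1 stood at 5.43, 3.05 and 1.80 and Cxcl5 at 1.37, 2.99 and 0.952. Ccl8, a macrophage chemokine, was low at 0.812, 0.485 and 1.06 against 25.8, 25.3 and 12.6 in the macrophage reference. Ccr1, a receptor for the defining chemokines, was found in 53.1%, 53.2% and 55.3% of members, at 24.5, 21.4 and 21.2 per 1000 against 3.10, 3.42 and 5.64 in all other cells. These are levels over the whole section. Within the gap 4 chemokine receptor genes, Ccr1 among them, held 2.635%, 3.26% and 2.78% of member transcripts. They held 2.43%, 1.35% and 1.80% in all other cells there and 2.86%, 1.70% and 2.35% in the neutrophil reference, above members in the Control section.

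Genes of the wound macrophage list were present as well, but the list is not particular to macrophages here. In the gap it held 16.8%, 10.7% and 14.1% of transcripts in the neutrophil reference. The macrophage reference there had 18.4%, 15.5% and 21.2%. The paper also predicts Spp1 signals from wound neutrophils. Spp1, which encodes osteopontin, stood at 62.7, 31.7 and 49.4 per 1000 in members against 4.03, 5.38 and 16.2 in the macrophage reference. Arg1, an arginine-degrading enzyme, stood at 17.0, 22.1 and 21.4 against 6.36, 9.37 and 12.5, but within the wound gap the order turned, with 18.5, 12.2 and 18.8 in members and 51.4, 51.5 and 42.6 in the macrophage reference. Spp1 kept its direction there, at 65.7, 52.5 and 70.2 against 19.96, 10.7 and 43.3. Mmp12, macrophage elastase, stood at 6.45, 6.32 and 22.0 against 3.40, 6.36 and 17.1. Fn1, Tgfbi and Lyz2 were not higher than in the macrophage reference in any section. F10, coagulation factor X, stood at 6.28, 16.3 and 18.3 per 1000 against 0.770, 1.84 and 4.18 in all other cells. The immediate early genes Jun (26.0, 23.4 and 24.9 per 1000), Junb (25.9, 16.3 and 17.9) and Atf3 (4.70, 2.79 and 3.42) completed the 15 leading genes, with Hdc, S100a8, Trem1, Slpi, Ccr1 and those above. The 5 genes lowest in members were Des of muscle and Krt1, Lor, Dsc1 and Mt4 of differentiated keratinocytes or hair, each with at most 44 transcripts in all members, and Mt4 with 0 in PITX1+ section 1.

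T and NK genes held 0.410%, 0.103% and 0.247% of member transcripts, B and plasma cell genes 0.278%, 0.0444% and 0.112%, mast cell and basophil genes at most 0.0983%, and endothelial genes 0.393%, 0.281% and 0.303%. In all other cells the T and NK genes held 0.142%, 0.171% and 0.186% and the B and plasma cell genes 0.0336%, 0.0468% and 0.0622%. Over the whole section members thus stood above all other cells in the Control section and PITX1+ section 2 and below them in PITX1+ section 1. In the gap members stood below all other cells in every section. The T and NK genes held 0.424%, 0.0802% and 0.140% there, against 0.613%, 0.504% and 0.275%. The B and plasma cell genes held 0.3205%, 0.0493% and 0.0819%, against 0.338%, 0.334% and 0.133%. None of the T and NK genes was at 0, Il7r leading with 191 transcripts. Fibroblast genes held 1.34%, 0.707% and 1.88%, and keratinocyte genes 1.24%, 6.84% and 2.45%. In PITX1+ section 1 the keratinocyte share was thus above that of the macrophage genes, and outside the gap there it reached 10.1%, above the neutrophil genes at 8.84%.

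**Figure D3:**
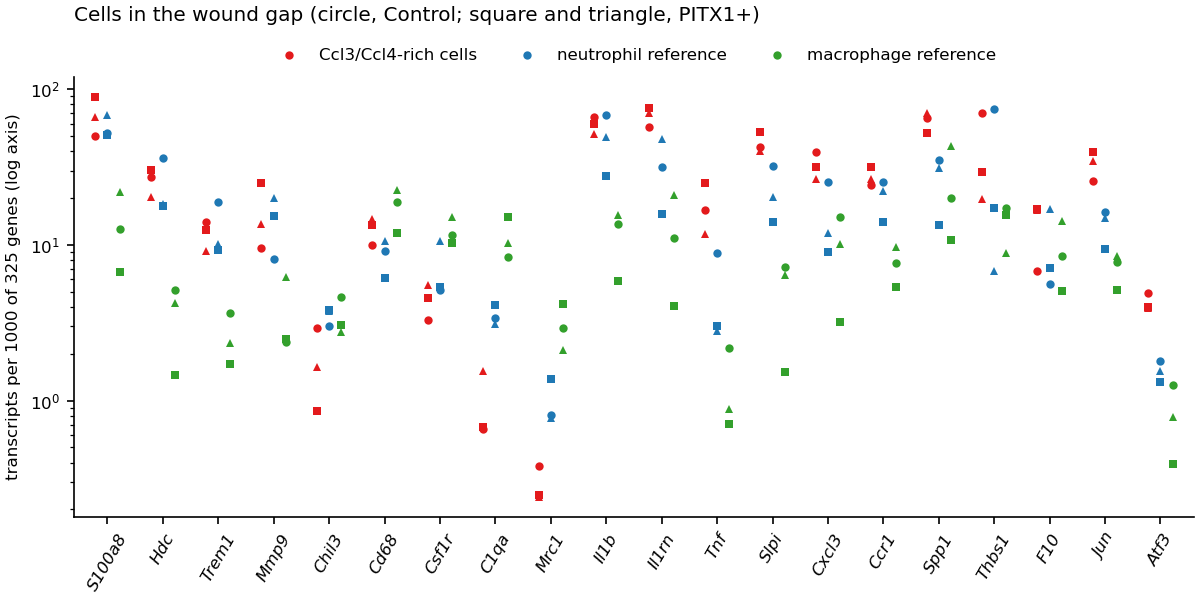
Transcripts per 1000 of 325 panel genes (y axis, log scale) for 20 genes (x axis) in members, the neutrophil reference and the macrophage reference of the wound gap, each mark being 1 section. C1qa and Mrc1 stood below both references in all sections, and Tnf, Il1rn, Slpi and Atf3 above both.

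The members gathered in the wound gap. The paper left the eschar, which it describes as mostly dead or dying cells, out of its Xenium analysis. All cells of the sections were kept here, so eschar may be included, and how many members lay in it was not tested. The wound gap was taken as the longest stretch along a section with fewer than 3 keratinocyte-rich cells per 50 µm, and measured 2.75, 2.80 and 2.65 mm of sections 8.04, 9.32 and 10.0 mm long. It held 491, 589 and 1104 members, which is 81.0%, 52.9% and 64.5% of them, but 21.1%, 15.5% and 16.2% of all cells with at least 10 transcripts. Of the macrophage reference 5.71%, 9.75% and 11.6% lay there, and of the neutrophil reference 43.9%, 17.7% and 16.5%. Of the Ccl3/Ccl4-rich cells with Cxcr2 it held 78.3%, 40.7% and 48.9%, which was less than of the members in every section but more than of either reference. All 3 of these kinds of cell had more transcripts per cell than members. The median was 85, 76 and 84 in the macrophage reference and 39, 63 and 66 in the neutrophil reference. All other cells had a median of 17, 26 and 28 in the gap and 74, 70 and 64 outside it. The part of depth in these shares was not tested. Members were 12.7% (11.7% to 13.8%), 9.96% (9.21% to 10.7%) and 10.2% (9.65% to 10.8%) of cells in the gap, and 0.797% (0.659% to 0.956%), 1.62% (1.49% to 1.77%) and 1.08% (0.999% to 1.17%) outside it. On this scale the Control section had the highest share in the gap and the lowest outside it. Per mm of gap there were 178.5, 210.4 and 416.6 members, fewest in the Control section, and of all cells of the gap, those under 10 transcripts too, members were 3.05%, 2.80% and 5.47%. Outside the gap the Control section was lowest on each of these scales.

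In the map the members of the gap lay mostly in narrow, broken bands, with further clusters nearer the surface in the Control section. Of the cells within 50 µm of a member in the gap, 55.2%, 52.5% and 37.4% had fewer than 10 transcripts, close to 55.0%, 49.5% and 33.4% around all other cells of the gap and above 32.8%, 17.1% and 16.2% around macrophage reference cells there. Members had 203, 238 and 211 cells of any depth within 50 µm, against 197, 139 and 162 around all other cells of the gap. Ranked from the surface at 0 to the deep edge at 100 among all cells of the same 50 µm, the median member stood at 87.0, 69.9 and 65.0, and the median macrophage reference cell deeper at 92.2, 91.7 and 84.0. All other cells of the gap stood at 71.4, 83.6 and 69.7, so members were deeper than these in the Control section and shallower in both PITX1+ sections. In the PITX1+ sections the middle 50% of members lay between 60.1 and 77.4, and between 52.3 and 77.9. In the Control section they spread from 46.4 to 94.3. The nearest other member was 8.32, 6.62 and 7.999 µm away at the median in the gap, against 26.5, 74.6 and 21.6 µm from a macrophage reference cell to its nearest member and 12.9, 32.5 and 16.5 µm from a neutrophil reference cell. Ccl3/Ccl4-rich cells with Cxcr2 lay 9.88, 7.44 and 10.2 µm from a member, so the closeness was shared by chemokine-rich cells of both kinds. Joined within 50 µm, members formed 10, 18 and 12 groups of at least 10, which held 88.4%, 93.1% and 81.6% of them. The largest held 326, 354 and 956 members over 1.16, 0.911 and 2.34 mm.

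**Figure D4:**
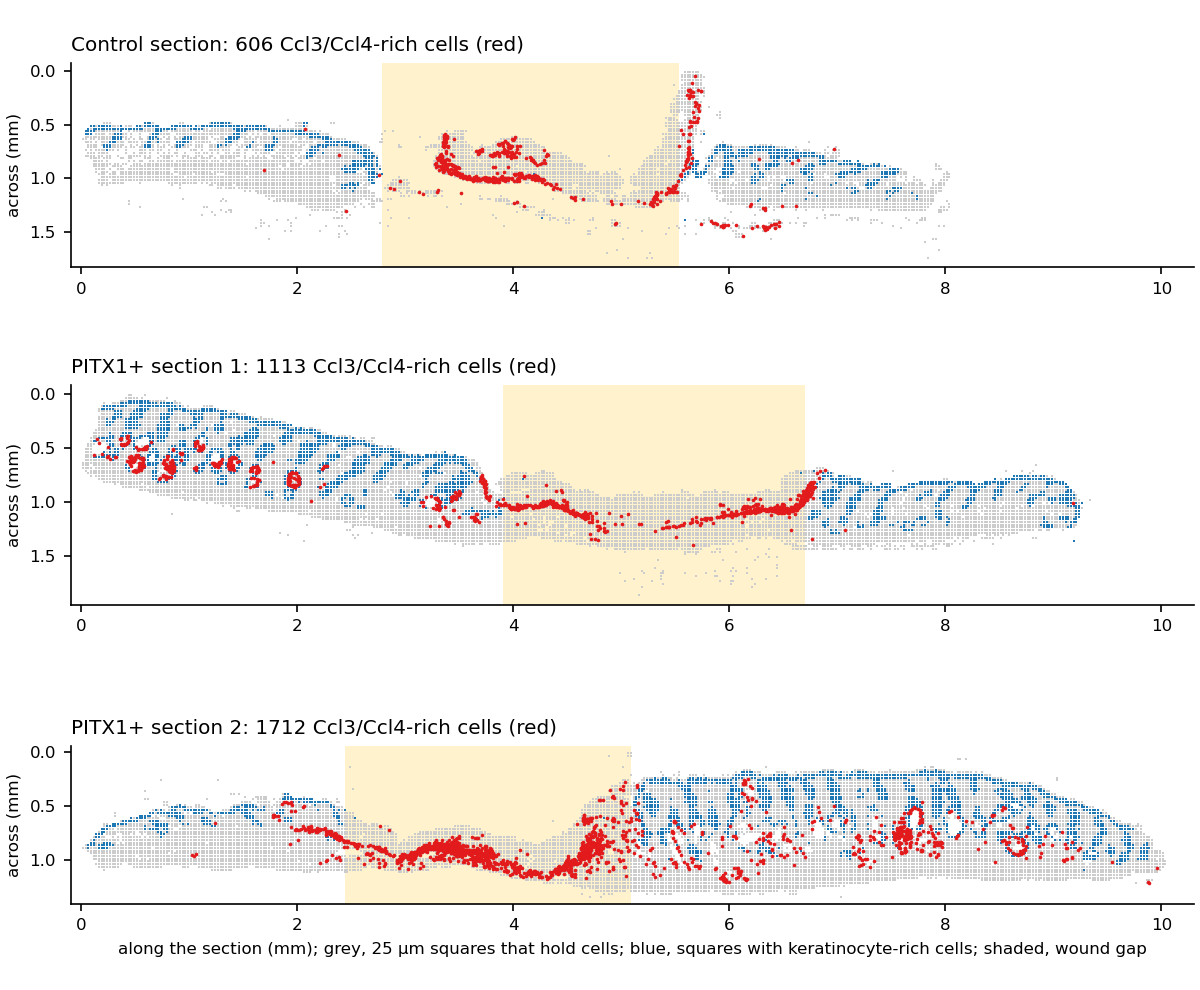
Positions of the 606, 1113 and 1712 members (red) in the 3 sections, along (x axis, mm) and across (y axis, mm) each section with the skin surface at the top; grey squares hold cells, blue squares keratinocyte-rich cells, and shading marks the wound gap. Members lie mostly in narrow, broken bands in the gap, with a wider scatter in the Control section, and partly in clusters on the flanks of all sections, some of them ring-shaped in the PITX1+ sections.

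Outside the gap the members of all sections lay partly in clusters, of which some were ring-shaped in the map of the PITX1+ sections. In PITX1+ section 1, 470 of its 524 members outside the gap lay on the left flank of the map, in 14 groups of at least 10, where they were 1.96% of 23977 cells with at least 10 transcripts. The right flank had 54 members and no such group, or 0.650% of 8308 cells. In PITX1+ section 2 the larger right flank had more members, 477 in 7 groups, but a smaller share, 0.998% of 47816 cells, than the left flank with 131 members in 1 group, 1.57% of 8332 cells. The Control section had 5 members on the left flank (0.0741%) with no such group and 110 on the right (1.43%), in 5 groups, some of them in fragments detached below the skin. These outlying members were 22.9 and 51.8 µm from the nearest keratinocyte-rich cell at the median in the PITX1+ sections and 199 µm in the Control section, and 81.3%, 48.0% and 20.9% respectively lay within 50 µm of one. In the gap the medians were 392, 388 and 551 µm. Of the cells within 50 µm of members outside the gap, 73.3%, 13.8% and 23.1% had fewer than 10 transcripts. Around all other cells outside the gap these shares were 13.1%, 6.61% and 6.74%. The surroundings of the outlying members thus differed between the Control and PITX1+ sections. Taken over the whole section, members lay 349, 122 and 193 µm from a keratinocyte-rich cell and macrophage reference cells 121, 60.2 and 111 µm. With the gap left out, macrophage reference cells lay 115, 53.6 and 93.1 µm away, so that members were farther in the Control section and nearer in both PITX1+ sections. All other cells outside the gap lay 45.0, 22.0 and 48.4 µm away at the median, and 52.1%, 71.2% and 50.8% of them lay within 50 µm. In the PITX1+ sections the medians of members and of all other cells thus differed little, while the share within 50 µm was larger for members in PITX1+ section 1 and slightly smaller in PITX1+ section 2.

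Against neutrophil reference cells of the same gap, few genes were at least 2-fold apart in the same direction in all 3 sections. This count hides a difference between sections. Over the 149 genes the median log2 ratio was -0.188, -1.43 and -0.516. In PITX1+ section 1 the median gene was thus more than 2-fold lower in members. The 149 genes were chosen by their counts over the whole section, and in the gap alone 71 had at least 100 transcripts. Of the 149 genes 2 were at least 2-fold higher in members in all 3 sections (1.34%), Csf3 and Atf3, and 7 at least 2-fold lower (4.7%), Sprr1b, Krt8, Cxcl16, Tgfbi, Krt5, Cxcl12 and C1qa. Against the macrophage reference of the whole section there were 31 higher (20.8%) and 34 lower (22.8%). That count was not restricted to the gap, so the 2 counts are not matched for place. Over the whole section members differed from the neutrophil reference too, which there held more keratinocyte than neutrophil transcripts. The inflammatory genes had median log2 ratios of 2.08, 1.41 and 1.02, and the keratinocyte genes -3.16, -0.907 and -1.94. All 149 genes had medians of -0.286, -0.348 and -0.339 there. Neutrophil genes held 10.5%, 15.8% and 11.2% of member transcripts in the gap, 11.9%, 9.87% and 12.1% in the neutrophil reference there, and 9.44%, 5.48% and 8.24% in all other cells there. The members were thus above their neutrophil reference in 1 of 3 sections. Atf3, a stress-response transcription factor, stood at 4.89, 4.01 and 3.95 per 1000 in members of the gap and at 1.80, 1.32 and 1.54 in the neutrophil reference.

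Keratinocyte genes held a smaller share of transcripts in members in the gap than in members outside it. The gap was defined by its lack of keratinocyte-rich cells, so longer distances to such cells there, and in part this difference, follow from the definition and are a description. Of the 149 genes 0 were at least 2-fold higher in the gap in all 3 sections (0.0%), and 15 were at least 2-fold lower (10.1%), among them 4 of the 8 measured keratinocyte genes. Keratinocyte genes held 1.06%, 0.265% and 0.453% of member transcripts in the gap and 1.88%, 10.1% and 4.62% outside it. Krt5, the keratin of basal keratinocytes, stood at 0.760, 0.0617 and 0.217 per 1000 in the gap and at 5.21, 12.0 and 5.06 outside. The part of transcripts taken in from neighbouring cells was not tested. Neutrophil genes held 7.49%, 8.84% and 8.04% of transcripts outside the gap, still more than the macrophage genes at 3.97%, 1.86% and 3.00%.

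Between conditions, the keratinocyte genes held a larger share of transcripts in members of both PITX1+ sections over the whole section, though in the gap the share of those genes was highest in the Control section. Of the 149 genes 18 were at least 2-fold higher in both PITX1+ sections than in the Control section (12.1%) and 2 at least 2-fold lower (1.34%), and among the higher were 4 of 8 measured keratinocyte genes, Krt6a, Krt16, Krt17 and Sprr1a. Most members were from the PITX1+ sections, so the minimum of 100 transcripts over all members let in genes high only there more readily than genes high only in the Control section, and the balance of these counts is no result. With no minimum 18 of 325 genes were higher and 110 lower. For a ratio, a section without a transcript of a gene was given 3, and Control members had the fewest transcripts in all. A gene missing there and rare in the PITX1+ sections could thus be counted as lower, so the 110 are no result. With at least 2 chemokine transcripts as the threshold, 201 genes had enough transcripts, of which 18 were higher and 15 lower. Krt17, a keratin of activated epidermis, stood at 2.14, 26.2 and 10.4 per 1000, which is 12.3-fold (9.26 to 16.6) and 4.87-fold (3.66 to 6.61) the Control level. In the gap it stood at 1.14, 0.555 and 1.85, below Control in 1 PITX1+ section and above it in the other. Sprr1a, a protein of the cornified envelope, stood at 0.385, 12.3 and 3.73 per 1000, on 9, 610 and 298 transcripts. Sprr2d, Cnfn and Krt16 completed the 5 genes that were highest in PITX1+ members.

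**Figure D5:**
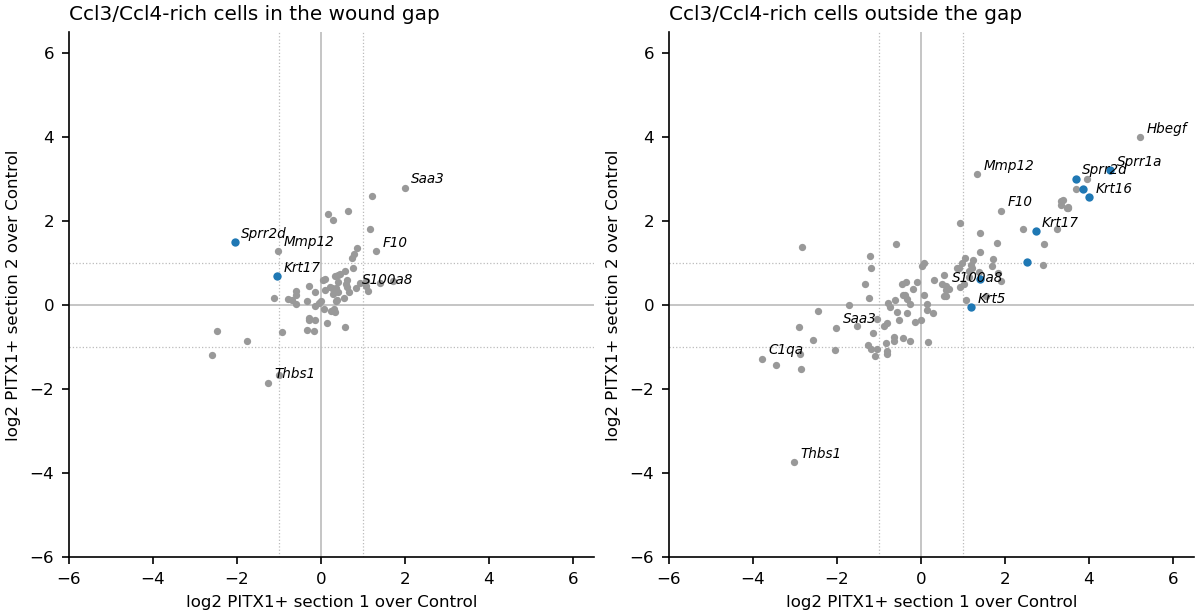
Log2 ratio of a gene's level in members of PITX1+ section 1 (x axis) and PITX1+ section 2 (y axis) over the Control section, inside the gap (left, 71 genes) and outside it (right, 109 genes). Each point is a gene and dotted lines are 2-fold. Blue marks the keratinocyte list plus Sprr2d and Cnfn, added though outside the list and among the genes highest in PITX1+ members. Thbs1 lay at the lower left in both. Outside the gap most blue points lay at the upper right, with 4 of 6 measured genes of the list at least 2-fold higher.

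Thbs1, which encodes the matrix protein thrombospondin 1, had the lowest level relative to Control of the 149 genes, by the larger of its 2 ratios. It was found in 74.9% of Control members and in 28.5% and 24.5% of members of the PITX1+ sections, at 66.4, 13.8 and 12.1 per 1000, which is 0.208-fold (0.190 to 0.228) and 0.182-fold (0.168 to 0.197) the Control level. The order was the same in the gap, at 70.8, 29.5 and 19.7 per 1000, and outside it, at 50.1, 6.19 and 3.76. Neutrophil reference cells of the gap, which the chemokine threshold left out, had the same order at 74.8, 17.2 and 6.83, so this was not particular to the members. Igf1 was the other lower gene, on 52, 19 and 58 transcripts. Cxcl1, Dsg1a and C3ar1 completed the 5 genes that were highest in Control members by their ratios, though none was 2-fold apart in both PITX1+ sections.

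F10 was higher in PITX1+ members in the gap and outside it. It was found in 17.2%, 34.3% and 37.7% of members, 2.59-fold (2.17 to 3.11) and 2.92-fold (2.46 to 3.48) the Control level, and 2.50-fold (2.02 to 3.11) and 2.44-fold (2.02 to 2.98) in the gap alone. All other cells had the same order over the whole section, at the levels given above, as did neutrophil reference cells of the gap at 5.63, 7.07 and 17.0 per 1000, so this was not particular to the members. With the gap alone 71 genes had enough transcripts, of which 4 were higher in both PITX1+ sections (5.63%), F10, Saa3, Col1a1 and Tnc, and 2 were lower (2.82%), Thbs1 and Sprr2a3. Outside the gap 109 genes had enough, of which 26 were higher (23.9%) and 9 lower (8.26%). The higher ones there included 4 of 6 measured keratinocyte genes and, among the immune genes, Mmp9, Arg1 and Mmp12. The lower ones included C1qa, C3ar1 and Tnf. Both counts rested on 115 Control members. Of the cells around these, 73.3% had fewer than 10 transcripts, against 13.8% and 23.1% around PITX1+ members outside the gap, so the surroundings were not alike. With 1 Control section, condition, animal and place of the cut cannot be told apart.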

How the data were processed

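Xenium measured 328 genes in place on 4 slides, of which the slide with wounds carried the members. The authors deposited the instrument's output: counts of transcripts per cell, a quality score for each transcript, and other values per cell or transcript (positions, areas, a mark for lying over the nucleus). Software version and segmentation settings were not given in the sources used here. Deposited cell outlines were not used, and no doublet caller was run.

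Counts per cell and gene were summed from transcripts whose quality score reached 20. Levels were summed per section and divided by the total of 325 genes, leaving out Ccl3, Ccl4 and Cxcr2. A gene was counted as apart at 2-fold in every section compared, with at least 100 transcripts in members. For a ratio, cells of a section without any transcript of a gene were given 3 together. The wound sections held 34635, 56004 and 83576 cells and 1622746, 3336168 and 5430303 transcripts, with a median of 58.0, 62.0 and 58.0 per cell with at least 10. Named genes were the macrophage and neutrophil lists, other immune genes with at least 100 transcripts in members, the 15 highest and 5 lowest against all other cells, and the 5 farthest apart each way between conditions. Some of the immune genes are given by counts only. A gene of the immune lists is not reported here. Genes named beyond this, Krt5, Krt6a, Krt8, Sprr1b, Col1a1, Tnc and Sprr2a3, were chosen after their values were seen. The members and the 16 gene lists were chosen with earlier results of these data known. Alternatives changed the thresholds, the quality score, the place of the cells and the sections used. Scripts were tested on simulated data and ran in Python 3.11.15 with numpy 2.4.6, pandas 2.3.3, scipy 1.17.1 and matplotlib 3.10.9.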

Additional observations from a re-analysis of the deposited data

Results flagged for a closer look

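Among the 7 sections of the buccal slide, 1 had a share of cells that met the rule of 0.0408% (exact 95% interval 0.00103% to 0.227%), while the other 6 had 0. This was 1 cell of 2449, and counts of 0 in the other sections allowed shares of up to 0.0502%, so the sections cannot be told apart at this depth. With the other 6 sections at 0, any single cell is picked out this way, so the flag carries no weight.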

How the results depend on the processing

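Of 65 values under alternative settings 36 were counted as unchanged and 29 as moved. The Control share was judged by its exact interval, the count of genes apart by a fixed fold band, and the other values by the SD. The Control share cannot change when a PITX1+ section is left out. The shares of members in the Control section and in the PITX1+ mean, 3.32% and 2.74%, moved to 6.67% and 5.08% with at least 2 chemokine transcripts, to 0.925% and 0.996% with 5, to 2.94% and 2.47% with at least 20 transcripts per cell, to 2.26% and 1.99% over the nucleus only, to 4.60% and 3.55% at any quality score, to 4.20% and 3.43% with Cxcr2-positive cells kept, to 0.797% and 1.35% with the gap left out, to 12.7% and 10.1% in the gap only, and to 1.75% and 2.02% as shares of all cells, the last 2 settings chosen after seeing the data. The order of Control and the PITX1+ mean turned with 5 chemokine transcripts, with the gap left out and over all cells. With 5 chemokine transcripts the mean lay within the exact interval of the Control share. Cells with macrophage genes only, 7.17%, were 10.4% with the gap left out and 5.52% in the gap only, and cells with neutrophil genes only, 55.6%, were 45.1% and 61.2%. The difference in distance to a keratinocyte-rich cell, 124 µm ± 90.5 (SD, n = 3), was 306 µm with at least 20 transcripts per cell, 436 µm with keratinocyte-rich cells cut at 50%, and 3.83 µm with the gap left out, a mean over a section where members were farther, Control, and the PITX1+ sections, where they were nearer. The 20 genes apart between conditions, 18 higher and 2 lower in PITX1+, became 33 with at least 2 chemokine transcripts, 18 higher and 15 lower, 35 with the gap left out, 6 in the gap only and 128 with no minimum of transcripts per gene, of which 110 were lower in PITX1+. With no minimum, a section without a transcript of a gene was given 3 for the ratio, so rare genes could be counted as lower by this step. The 110 are thus no result, and the cause of the other changes was not tested. Without either PITX1+ section in turn, the Control share stayed at 3.32%, the PITX1+ share was 2.56% to 2.91%, cells with macrophage genes only 6.32% to 7.41%, cells with neutrophil genes only 54.3% to 57.1%, the difference in distance 144 to 155 µm, and the genes apart 27 to 30. No paired analysis was possible because the sections of the 2 conditions share no replicate numbers; the contrasts within sections pair each section with itself. Depth limits the absence of Cxcr2, since the median member had 28.0 to 35.0 transcripts.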
